A study of Homo sapiens with 8 samples.

Results

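The ERBB receptors and their ligands were followed here as 10 genes chosen by name: the receptors EGFR, ERBB2, ERBB3 and ERBB4, the neuregulins NRG1, NRG2 and NRG3, and the ligands HBEGF, AREG and EREG. They are 10 of the 58217 genes to which the deposited transcript estimates could be assigned. RNA came from oligodendrocyte progenitor cells (OPCs) that had been made from the established human embryonic stem cell line H9. None of these cells carried the SOX10 transgene that the study used elsewhere. The OPCs were grown for 2 days on Matrigel, on vitronectin (VN) or on VNP2, and 2 Matrigel, 3 VN and 3 VNP2 libraries of polyadenylated RNA were analyzed. The Matrigel libraries are those labelled replicates 2 and 3, and a further Matrigel sample of the study was not analyzed here. Matrigel is a basement membrane extract, VN is an adhesive glycoprotein of serum and matrix, and VNP2 is a peptide designed from VN, fused to a mussel adhesive protein and immobilized on the plate. All groups shared the same OPC medium, whose listed growth factors are insulin and basic FGF, and all came from 1 cell line. The labels did not say whether replicates were separate cultures, so the p-values measure only the spread between these libraries, which may be technical. Each library held between 37997896 and 39429453 estimated counts.

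ERBB proteins are receptor tyrosine kinases that signal as pairs. EGFR binds EGF-type ligands, ERBB3 and ERBB4 bind neuregulins, ERBB2 has no known ligand of its own and serves as a partner, and ERBB3 has a weak kinase and depends on its partner. Most of the ligands are made as membrane-bound precursors that ADAM proteases cut loose. In the oligodendrocyte lineage neuregulins and EGF-type ligands are known to act on proliferation, survival and myelination.

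The labelled cell type was checked against its markers. OLIG1 and OLIG2, transcription factors of the lineage, were present at 47.6 to 70.1 and 40.0 to 54.6 TPM, Salmon's level per transcript length and library size. SOX10 and GPR17, markers of committed OPCs, were nearly absent, with 20 and 12 estimated counts over the 8 libraries. Of the marker lists, that of 8 neural progenitor markers, NES and VIM among them, had the highest sum, at 3125 to 3702 TPM. The summed level of 8 neuronal markers was 733 to 918 TPM and that of 8 mesenchymal markers 501 to 616 TPM. By contrast, the 4 immune markers summed to at most 0.627 TPM. The cultures therefore held transcripts of several cell types. In bulk RNA, fewer cells of a type and less RNA per cell cannot be told apart. VN replicate 1 differed from the other VN libraries more than these did from each other, and results that change without it are given below.

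ERBB2 was by far the highest of the members. Its level was 55.4 to 63.2 TPM in every library, and it made up 91.5 to 93.6% of the summed TPM of the 4 receptors. Leaving aside NRG1, which was read only in part, HBEGF came next in mean level at 6.68 TPM. However, this mean joins 14.2 TPM on Matrigel with about 4 TPM on the peptide and protein substrates. NRG3 (4.08 to 5.11 TPM) and EGFR (2.619 to 4.002 TPM) did not overlap each other, and both ranges were above those of ERBB3 (0.482 to 1.35 TPM), ERBB4 (0.194 to 1.08 TPM) and NRG2 (0.235 to 0.638 TPM). The last 3 overlapped and cannot be ordered. NRG1 was read at 1.99 to 3.61 TPM, but this covers only part of the gene, as described with the neuregulins. AREG and EREG were at or near 0. In build GRCh38 (GENCODE v29) EGFR lies at chr7:55019021-55211628, ERBB2 at chr17:39687914-39730426, ERBB3 at chr12:56076799-56103505 and NRG3 at chr10:81875314-82987179 on the plus strand. ERBB4 (chr2:211375717-212538841), HBEGF (chr5:140332843-140346631) and NRG2 (chr5:139846779-140043299) lie on the minus strand, and AREG (chr4:74445134-74455009) and EREG (chr4:74365143-74388751) both lie on the plus strand.

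**Figure D1:**
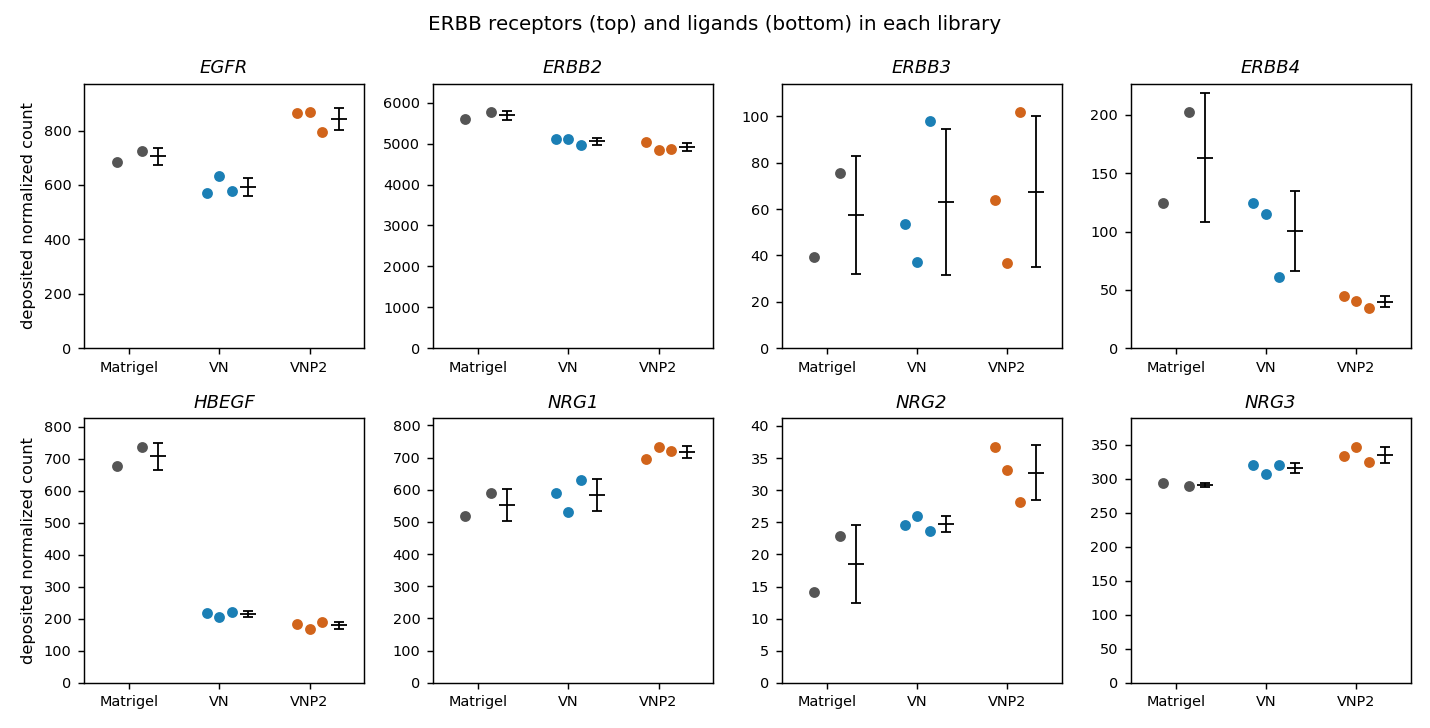
Deposited normalized count (vertical axis, from 0) of each of the 8 members with enough reads, in each library (dots) on Matrigel, VN and VNP2, with the mean and SD of each substrate (black). The 2 Matrigel libraries stand above all others for HBEGF, the 3 VNP2 libraries stand above all others for EGFR, and ERBB3 libraries of every substrate overlap.

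Of the 10 members, 8 had enough reads to be tested, in a model over 18203 genes. NRG1 is among the 8 on partial counts only, at 0.257 of its level in the authors' table. The numbers of members called and their medians in this paragraph rest on these partial counts. Across the 3 substrates 4 of the 8 were called changed at an adjusted p under 0.05 (edgeR quasi-likelihood test, Benjamini-Hochberg adjustment over all genes), namely EGFR, ERBB2, ERBB4 and HBEGF. The same test called 19.3% of all genes. On VN against Matrigel 3 of the 8 were called, all lower (EGFR, ERBB2 and HBEGF). The share among all genes was 15.3%, with 5.66% higher and 9.64% lower. On VNP2 against Matrigel 4 of the 8 were called, with EGFR higher and ERBB2, ERBB4 and HBEGF lower, beside 16.6% of all genes (7.43% higher and 9.15% lower). On VNP2 against VN 2 of the 8 were called, EGFR higher and ERBB4 lower, beside 5.10% of all genes (3.09% higher and 2.01% lower). The median log2 fold change of the 8 members was -0.20, 0.19 and 0.10 in these comparisons in turn, and that of all genes tested was 0.0033, 0.0018 and 0.00086. The comparisons of VN and of VNP2 with Matrigel share the 2 Matrigel libraries, so their calls are not independent of each other.

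**Figure D2:**
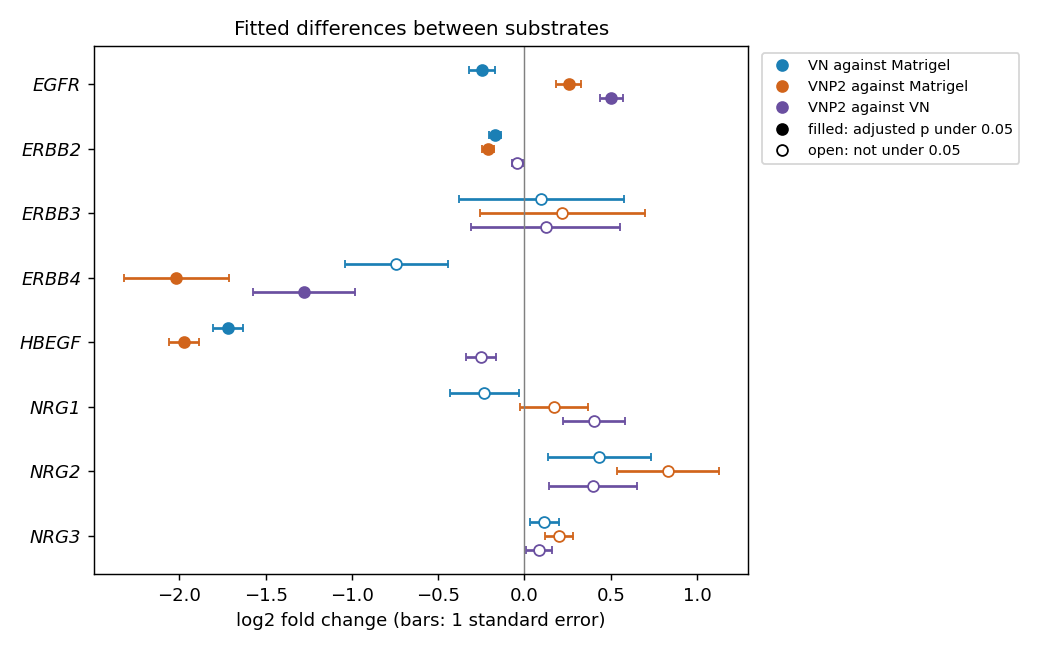
Fitted log2 fold change (horizontal axis) of each tested member in the 3 comparisons of substrates, with 1 standard error as bars and filled dots where the adjusted p was under 0.05. HBEGF lies at -1.72 and -1.97 against Matrigel, EGFR at 0.50 on VNP2 against VN, and the bars of ERBB3 are the widest. NRG1 is drawn from its partial counts.

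HBEGF, a membrane-anchored ligand of EGFR and ERBB4, showed the largest fall of the members relative to its error. Its normalized count was 679 and 738 on Matrigel. It was 217, 206 and 222 on VN and 183, 168 and 190 on VNP2. Every Matrigel library was thus above every other library, and the VN and VNP2 libraries did not overlap. The fall was 3.29-fold on VN (log2 fold change -1.72, SE 0.088, adjusted p = 8.51e-07) and 3.92-fold on VNP2 (-1.97, SE 0.089, adjusted p = 2.5e-07). Between VNP2 and VN the log2 fold change was -0.25 (SE 0.087) with an adjusted p of 0.14, which did not pass the threshold. In TPM the level was 13.6 and 14.8 on Matrigel, 4.41 to 4.76 on VN and 3.533 to 3.997 on VNP2. Nearly all of these reads, 2586 of 2591, were assigned to the full-length coding transcript HBEGF-201. The estimated counts themselves moved as the normalized values did, with 670 and 731 on Matrigel, 203 to 220 on VN and 169 to 193 on VNP2.

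The genes whose pattern over the 8 libraries was most like that of HBEGF were CYR61, IGFBP3 and CNN1. The measure was the root mean square distance between log2 normalized counts centered on their mean, among 12996 genes with a mean of at least 100, and it was 0.10, 0.14 and 0.14. CYR61, a secreted matricellular protein, had mean counts, normalized as above, of 10363 (Matrigel), 3211 (VN) and 2389 (VNP2). IGFBP3, which binds insulin-like growth factors, averaged 5606, 1855 and 1732 in the same order. CNN1, an actin-binding protein of smooth muscle, averaged 600.1, 167 and 168.

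EGF itself, which is no member of the list but the namesake ligand of EGFR, was looked at because of the fall of HBEGF. Its level was 17.8 and 18.0 TPM on Matrigel, 3.79, 3.89 and 4.38 TPM on VN, and on VNP2 4.66, 3.61 and 4.20 TPM. EGF fell by 2.24 on the log2 scale on VN (SE 0.10, adjusted p = 5.48e-07) and by 2.17 on VNP2 (SE 0.10, adjusted p = 3.22e-07), and the difference of VNP2 from VN was 0.07 (SE 0.10, adjusted p = 0.766). On Matrigel a short transcript of 567 bases, EGF-208, held 8.81 and 8.41 TPM of this level. The full-length transcript EGF-201 also stood apart, with 547 and 533 estimated counts on Matrigel, 137, 178 and 154 on VN, and on VNP2 160, 131 and 182. The long transcripts EGF-206 and EGF-204 (4489 and 3642 bases) did not separate the substrates. EGF-206 held 60.5 and 87.3 counts on Matrigel, 30.5 to 87.2 on VN and 59.2 to 149 on VNP2. EGF-204 held 66.1 and 49.2, 4.16 to 51.5 and 27.2 to 59.6 counts in the same order. Without the length correction the libraries held 833 and 849 EGF counts on Matrigel and 255 to 359 elsewhere, so the gap is narrower in counts than in TPM.

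The other EGFR ligands were low on every substrate. TGFA was at 0.150 and 0.199 TPM on Matrigel, 0.0838 to 0.144 on VN and 0.0713 to 0.0952 on VNP2, and its log2 fold changes of -0.76 and -1.18 against Matrigel had adjusted p-values of 0.23 and 0.0813. BTC and EPGN did not reach the level needed for a test, with 20 and 16 estimated counts over all libraries. AREG, a ligand of EGFR alone, had 6 estimated counts in all, with 0 to 2 per library. EREG, which binds EGFR and ERBB4, had 6 as well, with 1 and 2 on Matrigel, 0 in every VN library and 1 in every VNP2 library. At this depth no difference of AREG or EREG between substrates was detectable, and neither gene is in the authors' table of normalized counts. Summed over EGF, HBEGF, TGFA, AREG, EREG, BTC and EPGN, the EGFR ligands amounted to 31.8 and 33.3 TPM on Matrigel, 8.47 to 9.63 TPM on VN and 7.45 to 8.86 TPM on VNP2. EGF and HBEGF together held 94.9 to 98.8% of that sum in each library. The short transcript EGF-208 held 8.81 and 8.41 TPM of the sum on Matrigel and 0.909 to 1.62 TPM on the other substrates.

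**Figure D3:**
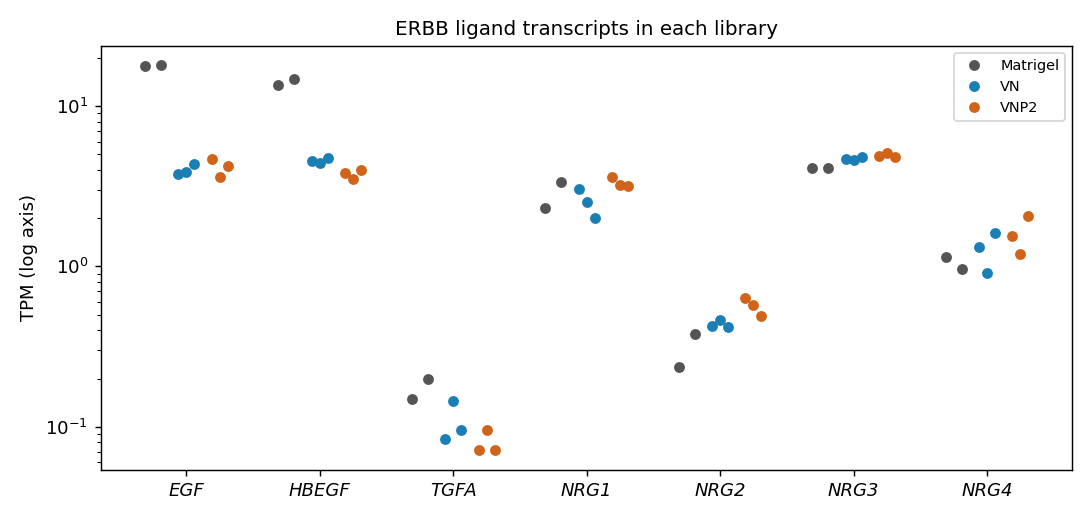
Level of EGF, HBEGF, TGFA and the neuregulins NRG1 to NRG4, in TPM on a log axis, with 1 dot per library for Matrigel, VN and VNP2. EGF and HBEGF drop from 13.6 to 18.0 TPM on Matrigel to 3.53 to 4.76 TPM on the other substrates, whereas NRG3 stays between 4.08 and 5.11 TPM. On Matrigel 8.81 and 8.41 TPM of EGF are those of the short transcript EGF-208.

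The promoters of the members that changed most, and of EGF, are shown because these genes differ in direction and size. Each is the stretch of 200 bases before the first transcribed base, in RefSeq sequence of build GRCh38.p14, written 5′ to 3′ on the strand of the gene. HBEGF lies at chr5:140346632-140346831 (minus strand), EGF at chr4:109912683-109912882 (plus strand), EGFR at chr7:55018817-55019016 (plus strand) and ERBB4 at chr2:212538842-212539041 (minus strand). Capitals mark matches, on either strand, to the motifs named after the sequences.
HBEGF: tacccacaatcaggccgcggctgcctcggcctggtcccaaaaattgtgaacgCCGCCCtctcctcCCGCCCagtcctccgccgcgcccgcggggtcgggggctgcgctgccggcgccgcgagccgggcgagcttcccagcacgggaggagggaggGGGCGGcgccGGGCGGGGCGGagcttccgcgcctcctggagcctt
EGF: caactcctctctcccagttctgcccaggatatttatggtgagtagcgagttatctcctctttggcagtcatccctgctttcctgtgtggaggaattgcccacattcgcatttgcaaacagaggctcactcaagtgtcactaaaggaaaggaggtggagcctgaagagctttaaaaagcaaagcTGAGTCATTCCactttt
EGFR: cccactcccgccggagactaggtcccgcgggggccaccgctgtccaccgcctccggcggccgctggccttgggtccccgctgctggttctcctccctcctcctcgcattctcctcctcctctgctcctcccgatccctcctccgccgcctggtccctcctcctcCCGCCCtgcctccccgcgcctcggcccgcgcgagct
ERBB4: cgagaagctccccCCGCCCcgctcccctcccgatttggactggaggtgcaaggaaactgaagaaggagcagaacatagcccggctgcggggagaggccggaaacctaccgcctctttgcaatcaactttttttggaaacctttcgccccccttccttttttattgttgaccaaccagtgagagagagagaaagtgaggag

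The motifs searched were the AP-1 site TGANTCA, the cyclic AMP response element TGACGTCA, the TEAD site GGAATG, the GC box GGGCGG and the CArG box of SRF. HBEGF held 5 GC boxes, the last 2 of which share a base, and EGFR and ERBB4 held 1 each. EGF held no GC box but an AP-1 match from 17 to 11 bases before the start, which overlaps by 2 bases a TEAD match from 12 to 7 bases before it. Of 35116 promoter stretches of the same length, 40.1% held a GC box, 5.38% an AP-1 match, 9.51% a TEAD match, 1.57% a cyclic AMP response element and 0.98% a CArG box. These are matches of letters and say nothing on binding in these cells. HBEGF and EGF, which fell together, shared none of the 5 motifs in these stretches.

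EGFR, the receptor for EGF, HBEGF and the other EGF-type ligands, went up on VNP2. Its normalized count was 683 and 726 on Matrigel. It was 572, 631 and 578 on VN and 864, 868 and 794 on VNP2. All VNP2 libraries were above all others, and all VN libraries were below both Matrigel libraries. EGFR rose 1.42-fold on VNP2 against VN (log2 fold change 0.50, SE 0.065, adjusted p = 0.00141). Against Matrigel it rose on VNP2 (0.26, SE 0.073, adjusted p = 0.0355) and fell by 0.25 on VN (SE 0.073, adjusted p = 0.0468). The fall on VN was no longer called in 16 of the 18 alternatives, among them DESeq2 (adjusted p = 0.0721) and the fit without VN replicate 1 (adjusted p = 0.0756). The rise on VNP2 against Matrigel was lost in 6 of them, with adjusted p-values of up to 0.216, whereas the rise against VN was called in all of them. EGFR thus made up 4.23 to 4.69% of the receptors' summed TPM on Matrigel and VN and 6.02 to 6.66% on VNP2. Its 3 nearest genes in pattern were TCIM, MAN1A1 and KHDRBS3, at distances of 0.062, 0.065 and 0.069.

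ERBB2, the co-receptor without a ligand, was slightly lower on both VN and VNP2. Its normalized count was 5609 and 5773 on Matrigel. It was 5112, 5103 and 4957 on VN and 5034, 4850 and 4869 on VNP2. The Matrigel libraries were above all others, and the VN and VNP2 libraries overlapped. ERBB2 fell by 0.17 on the log2 scale on VN (SE 0.037, adjusted p = 0.0116) and by 0.21 on VNP2 (SE 0.037, adjusted p = 0.0029), and VNP2 differed from VN by -0.04 (SE 0.033, adjusted p = 0.549). These are changes of 11.1 and 13.6%, which the test could call because the libraries of a substrate differed by little. With 1 Matrigel library left out the fall on VN was not called (adjusted p = 0.0552 without replicate 2 and 0.113 without replicate 3). The genes nearest in pattern were BICD2, TBRG4 and EID2, at distances of 0.016, 0.018 and 0.018.

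ERBB4, a receptor of neuregulins and of HBEGF, was lowest on VNP2, and its values depend on how transcript length is treated. The estimated counts were 156 and 169 on Matrigel, 76, 63 and 82 on VN, and on VNP2 57, 53 and 44, so that the 3 substrates did not overlap. After the length correction that the authors' processing also applies, the normalized counts were 124 and 203 on Matrigel, 125, 115 and 60.9 on VN, and on VNP2 44.5, 40.5 and 34.7. On this scale Matrigel replicate 2 lay among the VN libraries and VN replicate 3 lay near the VNP2 libraries. The average transcript length was estimated at 9944 to 10793 bases in 5 libraries but at 6688, 4804 and 4311 bases in Matrigel replicate 3, VN replicate 1 and VN replicate 2. In each of these 3 libraries exactly 1 estimated count was assigned to ERBB4-207, a noncoding transcript of 309 bases, and in the other 5 none was.

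**Figure D4:**
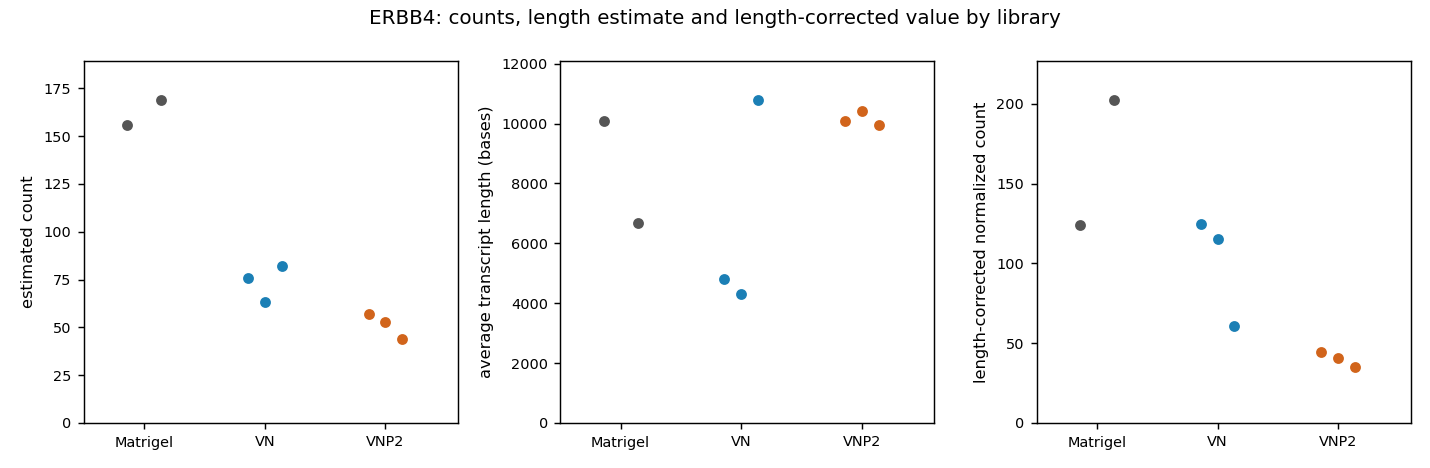
ERBB4 in each library on Matrigel, VN and VNP2: the estimated count (left), the average transcript length in bases (middle) and the normalized count after length correction (right), all axes from 0. Counts separate Matrigel (156 and 169) from VN (63 to 82) and VNP2 (44 to 57), whereas 3 libraries with short length estimates stand higher after the correction.

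With the length correction ERBB4 fell 4.05-fold on VNP2 against Matrigel (log2 fold change -2.02, SE 0.31, adjusted p = 0.00119) and 2.42-fold on VNP2 against VN (-1.28, SE 0.30, adjusted p = 0.034). Its difference of -0.74 on VN against Matrigel (SE 0.30, adjusted p = 0.127) was not called. Without length correction the picture changed. On VN against Matrigel the log2 fold change became -1.17 (adjusted p = 0.000453), and on VNP2 against VN it became -0.54 (adjusted p = 0.0729). Leaving out only transcripts with fewer than 10 counts over the 8 libraries, an alternative chosen after these values were seen, gave -1.20 on VN (adjusted p = 0.000665), -1.69 on VNP2 against Matrigel (adjusted p = 5.3e-05) and -0.50 on VNP2 against VN (adjusted p = 0.111). The fall on VNP2 against Matrigel was called in all 17 alternatives that kept ERBB4, with values from -2.33 to -1.64. The call on VNP2 against VN was also lost without VN replicate 1 (adjusted p = 0.0625), without VN replicate 2 (0.117) and without any VNP2 library (0.083 to 0.12).

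Nearly all ERBB4 counts were assigned to 3 coding transcripts of 11699 to 12097 bases. ERBB4-202 and ERBB4-205, which match the RefSeq transcripts of the CYT-1 and CYT-2 forms, with and without a binding site for phosphoinositide 3-kinase, took 360 and 252 of the 700 counts. Single libraries gave all of their counts to one or the other of these, as VN replicate 3 did to ERBB4-202 (82 counts) and VNP2 replicate 2 to ERBB4-205 (53 counts). The forms are therefore not compared between substrates. COL1A1, ADAMTS15 and LEFTY2 were nearest to ERBB4 in pattern, at distances of 0.38, 0.38 and 0.39, far wider than those of the other called members. The pattern compared is that of the length-corrected values, so it carries the length estimates described above. Markers of pluripotent cells moved on VNP2 as well. Of 5 such markers, 1 was higher and 3 were lower on VNP2 against Matrigel, beside 7.43% higher and 9.15% lower among all genes. Their summed level was 91.4 and 96.3 TPM on Matrigel, 82.6 to 84.3 on VN and 75.8 to 79.0 on VNP2. POU5F1, the defining factor of that state, was at 4.85 and 5.07 TPM on Matrigel, 5.73 to 7.23 on VN and 1.61 to 2.72 on VNP2. Whether these cells have a part in the ERBB4 values was not tested.

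ERBB3, the neuregulin receptor that marks Schwann cells and OPCs, was low and without a detectable difference. Its estimated counts were 63 and 67 on Matrigel, 60 in VN replicates 1 and 3 and 56 in VN replicate 2, and 62, 43 and 61 on VNP2. Its normalized counts ran from 36.7 to 102 and overlapped on all substrates, since the average transcript length was put at 1990 to 5441 bases. The log2 fold changes of 0.10, 0.22 and 0.12 had standard errors of 0.48, 0.48 and 0.43 and adjusted p-values of 0.919, 0.816 and 0.914. Without length correction their sign reversed, to -0.18, -0.28 and -0.10, and none was called.

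NRG1, which encodes neuregulins with and without a membrane anchor from several promoters, needs a caution. The transcripts that could be matched held 0.257 of the level that the authors' table gives for the gene. In the authors' normalized counts NRG1 was at 517 and 589 on Matrigel, 591, 532 and 631 on VN, and on VNP2 696, 734 and 721. All VNP2 libraries were above all others, and Matrigel and VN overlapped. On this table limma gave a log2 fold change of 0.38 on VNP2 against Matrigel (adjusted p = 0.0133) and of 0.08 on VN against Matrigel (adjusted p = 0.63). Its value on VNP2 against VN was 0.30 (adjusted p = 0.0596), which was not called. In the partial counts the values were 0.17 (adjusted p = 0.628), -0.23 (adjusted p = 0.482) and 0.41 (adjusted p = 0.248) in the same order, and none was called by edgeR. Among the transcripts that were covered, NRG1-211, which matches the RefSeq transcript of the type III form SMDF with its cysteine-rich domain, held 416 counts. NRG1-202, a type I or heregulin form, held 707 of 1322, but none in VN replicate 3 and VNP2 replicate 2, so the forms were not compared.

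NRG2 and NRG3, neuregulins expressed mainly in the nervous system, were not called in any comparison. NRG2 had normalized counts of 14.2 and 22.8 on Matrigel, 24.7, 26.0 and 23.6 on VN, and on VNP2 36.8, 33.2 and 28.2. The substrates did not overlap on this length-corrected scale. Its estimated counts did overlap, at 17 and 22 on Matrigel, 27, 26 and 22 on VN, and on VNP2 34, 26 and 33. Its log2 fold change on VNP2 against Matrigel was 0.83 (SE 0.30, adjusted p = 0.087), and with 17 to 34 counts per library the counting error alone is large. NRG3, a ligand of ERBB4, had normalized counts of 293 and 289 on Matrigel, 320, 307 and 319 on VN, and on VNP2 333, 347 and 324. These did not overlap, but the log2 fold changes were small, at 0.12 (adjusted p = 0.39), 0.20 (adjusted p = 0.135) and 0.08 (adjusted p = 0.575). The share of all genes that separate in this way was not counted. NRG3-201 held 64.6 to 75.7% and NRG3-203 20.0 to 32.2% of its TPM in each library. NRG4, a further ligand of ERBB4, was at 0.907 to 2.07 TPM and was not called. Summed over NRG1 to NRG4, with NRG1 in part, the neuregulins amounted to 7.80 and 8.80 TPM on Matrigel, 8.50 to 9.46 on VN and 10.1 to 10.7 on VNP2, and so did not show the drop of the EGFR ligands.

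Proteins that free or carry the ligands were read from a list of 12 genes, 10 of which were tested. On VN 3 fell and none rose, and on VNP2 5 fell and none rose. The shares called by edgeR were 30, 50 and, on VNP2 against VN, 0% of the list, beside 15.3, 16.6 and 5.10% of all genes. ADAM9, a protease that can shed HBEGF, had 69.4 and 72.6 TPM on Matrigel, 46.0 to 49.3 on VN and 44.8 to 49.9 on VNP2, a fall of 0.65 and 0.64 on the log2 scale. ADAM19, which can cut neuregulin, fell by 0.59 and 0.73. CNIH4, a cargo receptor of the early secretory pathway, fell by 0.33 and 0.32. RHBDF1, the inactive rhomboid iRhom1 that carries ADAM17 to the surface, fell by 0.52 on VNP2. ADAM10 and ADAM17, the main sheddases, averaged 141 and 39.5 TPM on Matrigel. ADAM17 fell by 0.15 on VNP2, and ADAM10 was not called. On VNP2 against VN edgeR and DESeq2 called 0 of the 10, and 3 had an unadjusted p under 0.05.

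Among 26 adaptors and members of the RAS and ERK cascade 1 rose and 4 fell on VN, 4 rose and 2 fell on VNP2, and 2 rose on VNP2 against VN. These are 19.2, 23.1 and 7.69% of the list, close to the 15.3, 16.6 and 5.10% of all genes. The 5 called on VN became 1 or 2 without Matrigel replicate 2 or 3, 8 without VN replicate 1, and 3 or 1 without VN replicate 2 or 3, and the 2 called on VNP2 against VN became 5 without VN replicate 1. SHC4 rose by 0.86 on VN and 1.06 on VNP2 on the log2 scale, while SHC1, the widespread member of the same adaptor family, fell by 0.44 and 0.60. VAV3, a guanine nucleotide exchange factor, was at 5.51 and 5.52 TPM on Matrigel, 5.10 to 5.76 on VN and 10.4 to 11.3 on VNP2. It rose by 0.91 against Matrigel (adjusted p = 8.14e-06) and by 1.004 against VN (adjusted p = 1.36e-05). SHC3, the neuronal SHC adaptor, rose by 0.30 and 0.31 in the same comparisons. The call of SHC4 on VN was lost in 4 of 18 alternatives. HRAS (-0.40) and NCK2 (-0.18) fell on VN, calls that were also lost in 4 each, and NRAS (-0.24) fell on VNP2.

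Of 14 genes of the phosphoinositide 3-kinase and AKT arm, 2 rose and 2 fell on VN, 1 rose and 2 fell on VNP2, and edgeR and DESeq2 called 0 on VNP2 against VN, where 2 had an unadjusted p under 0.05. The shares called by edgeR were 28.6, 21.4 and 0% of the list, beside 15.3, 16.6 and 5.10% of all genes. The share on VNP2 is thus near that of all genes. PIK3R1, a regulatory subunit, rose by 0.31 on VN and 0.43 on VNP2, and PIK3R3, a related subunit, rose by 0.18 on VN. PIK3CD, a catalytic subunit, fell by 0.45 and 0.62, and its call on VN was lost in 6 of 18 alternatives. AKT1 fell by 0.13 on VN and the ribosomal protein kinase RPS6KB1 fell by 0.24 on VNP2, and these 2 calls were lost in 10 and 7 of 18 alternatives. The 4 called on VN became 2 or 1 without Matrigel replicate 2 or 3 and 2 without VN replicate 3, and the 3 called on VNP2 became 1 without Matrigel replicate 2.

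Among inhibitors of ERBB signaling the called genes lay in both directions. Of 18 tested, 1 rose and 2 fell on VN, 2 rose and 4 fell on VNP2, and 2 rose and 1 fell on VNP2 against VN. These are 16.7, 33.3 and 16.7% of the list beside 15.3, 16.6 and 5.10% of all genes, so that the share on VN is near that of all genes. ERRFI1 (MIG6), which binds and blocks the EGFR kinase and is itself induced by EGF, was at 27.3 and 28.2 TPM on Matrigel, 20.1 to 22.9 on VN and 21.3 to 22.6 on VNP2, a fall of 0.46 and 0.42 on the log2 scale. SPRY2 and SPRY4, feedback inhibitors of receptor tyrosine kinases of several families, rose on VNP2 by 0.55 and 0.63 against Matrigel and by 0.69 and 0.77 against VN. LRIG3, a membrane protein related to the ERBB inhibitor LRIG1, fell by 0.47 and 0.31 in these comparisons. The ubiquitin ligases gave CBLB higher (0.28) and RNF41, which targets ERBB3, lower (-0.20) on VN, and CBL lower (-0.13) on VNP2. The calls of CBLB, RNF41 and CBL were lost in 7, 2 and 6 of 18 alternatives. The 3 called on VN became 1 without either Matrigel library and 5 without VN replicate 1.

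Of 16 partners of ERBB4 and ERBB2, ERBB2 itself included, 3 fell on VN, 3 rose and 2 fell on VNP2, and 1 rose on VNP2 against VN. NEDD4, a ubiquitin ligase of ERBB4, fell by 0.31 and 0.37 against Matrigel. CDC37, a chaperone of kinases, fell by 0.17 on VN. DLG4 (PSD-95), which binds ERBB4 at synapses, rose by 0.34 on VNP2, PSEN2, a catalytic subunit of γ-secretase, by 0.29, and YAP1, which can bind the freed ERBB4 tail, by 0.17. The call of PSEN2 was lost in 13 of 18 alternatives, that of CDC37 in 7 and that of YAP1 against VN in 6. The shares called were 18.8, 31.2 and 6.25% of the list, beside 15.3, 16.6 and 5.10% of all genes. Those on VN and on VNP2 against VN are thus near the shares of all genes. The 3 called on VN became 1 without Matrigel replicate 2, the 5 called on VNP2 became 3 without either Matrigel library, and the 1 called against VN (YAP1) became 2 without VN replicate 1 and 0 without any other VN or VNP2 library.

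Genes that EGF is known to induce within hours in many cell types were lower on VN and VNP2. They respond to many other stimuli too and are no specific measure of ERBB activity. Of 18 tested, 14 fell and none rose on VN, with a median log2 fold change of -0.95. On VNP2 11 fell and 2 rose, with a median of -0.55, and against VN 7 rose and 1 fell, with a median of 0.32. The shares called were 77.8, 72.2 and 44.4% of the list, beside 15.3, 16.6 and 5.10% of all genes. IER3 was at 108 and 117 TPM on Matrigel, 23.3 to 27.5 on VN and 20.4 to 21.8 on VNP2, and fell by 2.26 and 2.49 on the log2 scale. FOSB fell by 3.06 and 2.55, and FOSL1, an AP-1 subunit, fell by 2.11 and 1.69. DUSP4 and DUSP6, phosphatases of ERK, did not follow the others. They rose on VNP2 by 0.18 and 0.21 against Matrigel. On VNP2 against VN the rises were led by EGR1 (0.69), FOS (0.64) and PHLDA1 (0.48), and ATF3 fell by 0.28. The calls of EGR1 and FOS against VN were lost in 7 and 5 of 18 alternatives. The 8 calls against VN became 5 without VNP2 replicate 1.

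**Figure D5:**
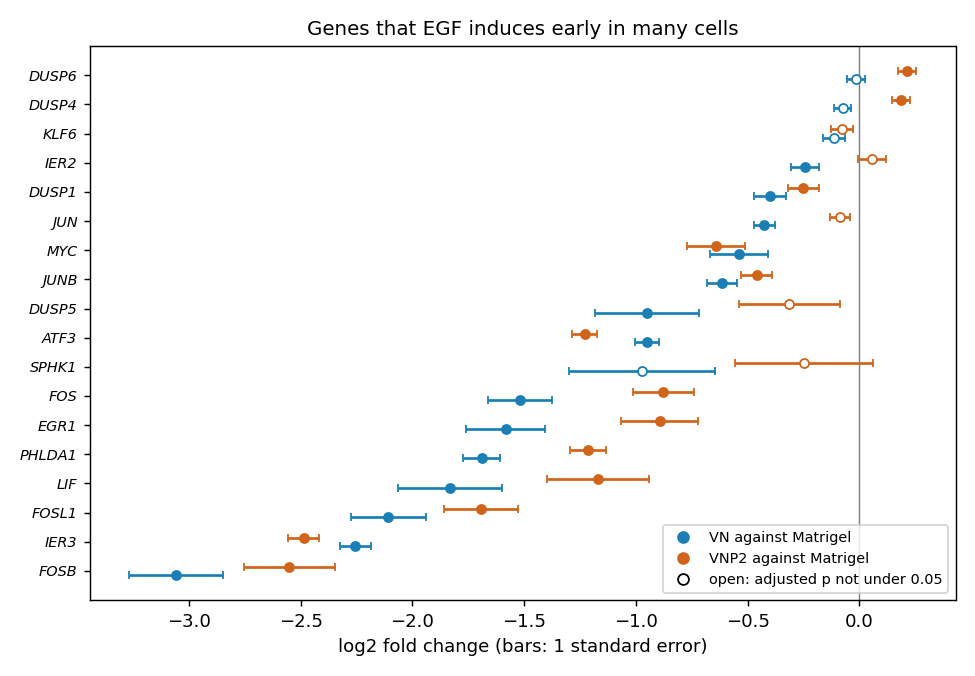
Fitted log2 fold change (horizontal axis, bars 1 standard error) of the 18 tested genes that EGF induces early in many cells, on VN and on VNP2 against Matrigel, with open dots where the adjusted p was not under 0.05. FOSB, IER3 and FOSL1 lie furthest to the left, at -3.06, -2.26 and -2.11 on VN, and DUSP4 and DUSP6 lie right of 0 on VNP2.

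Markers of several cell types moved with the substrates beside these genes. For scale, 5.66% of all genes were called as rising on VN and 9.64% as falling. The shares of all genes for VNP2 against Matrigel were 7.43% rising and 9.15% falling. Of the OPC markers 3 of 8 tested rose on VN and 6 of 8 on VNP2, and the sum of all 10 was 220 and 221 TPM on Matrigel, 287 to 301 on VN and 316 to 340 on VNP2. Of the tested epithelial markers 2 of 6 fell on VN and 5 of 6 on VNP2. The sum of all 7 was 161 and 171 TPM on Matrigel, 94.1 to 96.0 on VN and 104 to 108 on VNP2. Most of that sum was KRT8 and KRT18, whereas CDH1 and EPCAM, the defining adhesion molecules, averaged 0.452 and 5.41 TPM on Matrigel. Of the neuronal markers 4 of 8 rose on VN and 6 of 8 on VNP2, and their sum was 733 and 767 TPM on Matrigel, 825 to 884 on VN and 895 to 918 on VNP2. Of the mesenchymal markers 3 rose and 2 fell on VN and 5 rose and 2 fell on VNP2. Their sums, which cover changes in both directions, were 512 and 521 TPM on Matrigel and 501 to 536 on VNP2. They were higher in every VN library, at 579 to 616 TPM. COL1A1, a fibrillar collagen and the gene nearest to ERBB4 in length-corrected pattern, fell by 0.54 on VN and 1.41 on VNP2. By contrast, TWIST1, DCN and LUM rose by 0.47, 0.34 and 0.31 on VNP2. The astrocyte markers summed to 208 and 219 TPM on Matrigel, 129 to 141 on VN and 156 to 165 on VNP2. Most of that was the gap junction gene GJA1, which fell by 0.82 and 0.59, and GFAP and AQP4 were too low to test. The endothelial markers CDH5 (-1.93 and -1.60) and TEK (-0.996 and -1.36) fell on VN and VNP2 as HBEGF did, at mean levels on Matrigel of 0.477 and 3.20 TPM, while KDR was not called. Of 7 neural progenitor markers tested, 3 rose and 2 fell on VN, and 1 rose and 2 fell on VNP2. Among 3 tested markers of myelinating oligodendrocytes 1 fell on VN and 2 fell on VNP2. Of 5 tested markers of neural crest and Schwann cells none was called on VN, and 1 rose on VNP2. The part of any of these cells in the values of HBEGF, EGF, EGFR and ERBB4 was not tested.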

How the data were processed

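RNA of H9-derived OPCs on Matrigel, VN and VNP2 was sequenced by the authors as stranded paired-end libraries. The authors trimmed the reads with Trim Galore and ran Salmon on GENCODE v32 (GRCh38.p13). The deposited estimated counts and deposited TPM values per transcript are Salmon's own, and the deposited effective lengths weight the length correction. The authors' normalized counts, a signal per gene, came from tximport and DESeq2 1.27.12, after division by size and length factors.

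Transcripts were matched by identifier to GENCODE v29 (205225 of 226608, holding 98.8 to 98.9% of the counts per library), and estimated counts were summed per gene and rounded. Transcripts without a match were left out, which matters for NRG1. The filter was filterByExpr (10 counts, 15 in total), and genes were fitted in edgeR 4.0.16 (R 4.3.3) with TMM and length offsets, in 1 model of the 8 libraries, with two-sided quasi-likelihood tests, adjusted by Benjamini-Hochberg over 18203 genes. SE was derived from the fold change and the F statistic. The alternatives used DESeq2 1.42.0 and limma 3.58.1 on log2(authors' normalized counts + 1) or + 10, and further alternatives were RLE scaling, fits without length offsets or without the filter, a floor of 50 counts per library, a block for replicate numbers, the libraries of 1 pair alone, and each library left out. The fits were tested on simulated counts.

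Named genes are the members, of each pathway list the called genes with the largest changes (at most 3 per direction), and for each member called across the substrates its 3 nearest genes. Markers and EGF's transcripts were named to describe these results, and genes named beyond this rule (ADAM10, ADAM17, TGFA, BTC, EPGN and NRG4, the last 4 to complete the ligands) were chosen after their values were seen. Members and lists were chosen with earlier results of these data known. Promoters were taken from a RefSeq table that holds 8 of the 10 members. Intervals and standard errors cover the spread between these libraries, and at the lowest counts mainly counting error.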

Additional observations from a re-analysis of the deposited data

How the results depend on the processing

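The calls of HBEGF, ERBB2 and ERBB4 on VNP2 against Matrigel, of HBEGF on VN against Matrigel and of EGFR on VNP2 against VN were kept in each alternative that could be fitted (17 for ERBB4, which the filter at 50 counts removes, and 18 for the others). Of 3 members called on VN against Matrigel, 1 to 3 were left when single libraries were left out. Of 2 called on VNP2 against VN, 1 to 2 were left when single libraries were left out, and 1 each without length offsets, with at least 50 counts in every library and with transcripts under 10 counts left out. Values that reversed were those of ERBB3 and NRG1, none of them called. ERBB3 gave -0.18, -0.28 and -0.10 in the 3 comparisons without length offsets, -0.46 and -0.083 against Matrigel without the rare transcripts, and ranges with a library left out of -0.33 to 0.60 on VN, -0.21 to 0.72 on VNP2 and -0.26 to 0.53 on VNP2 against VN. NRG1 on VN gave 0.080 and 0.079 in the authors' table with either pseudocount, and -0.48 to 0.055 with a library left out. NRG1 on VNP2 against Matrigel gave -0.17 without length offsets and -0.072 to 0.46 with a library left out. In the authors' table limma called this difference, with 0.38 and 0.37 for the pseudocounts 1 and 10 (adjusted p = 0.0133 and 0.015). Except for the construction of the rare-transcript alternative in ERBB4, the cause was not tested.

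Whether replicate numbers pair the samples could not be told. Deviations from the substrate mean correlated at -0.13 to 0.16 for same-numbered libraries and at -0.20 to 0.21 for the others. With 2 or 3 libraries per substrate these deviations are tied to each other, so low correlations cannot exclude pairing. With the replicate block 4, 2, 3 and 2 members were called across the substrates, on VN, on VNP2 and on VNP2 against VN. Calls over all genes with this block were 3997, 3391, 3171 and 1146 in the same order. Without it they were 3522, 2785, 3019 and 929. Counts of all genes moved by over 1.5 times when a library was left out. Without Matrigel replicates 2 or 3 they were 1228 and 1189 on VN, 1637 and 1609 on VNP2, and 1910 and 1882 across the substrates. On VNP2 against VN they rose from 929 to 1997 without VN replicate 1, and were 578 to 582 without VN replicates 2 or 3 and 548 and 552 without VNP2 replicates 1 or 3. Of 56 calls of named pathway genes 36 were kept in all alternatives and none reversed. Matrigel had 2 libraries, which limits the estimate of its spread. The members ERBB3, ERBB4, NRG2, AREG and EREG, with fewer than 100 counts in some or all libraries, are limited by depth. NRG1 is limited instead by its transcripts without a match, as the matched ones held 0.257 of the authors' level.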
